A study of Homo sapiens with 12 samples.

Results

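L1MB is a group of old LINE-1 subfamilies (L1MB1 to L1MB5, L1MB7 and L1MB8) whose copies lie scattered through the human genome. Its members here are all repeat elements whose annotated subfamily begins with L1MB and for which reads were counted on the strand of the element itself, in at least 1 of 12 PAR-CLIP libraries. By that rule 32054 elements belonged to L1MB, of 1509971 counted elements in 6 classes (LTR, LINE, SINE, DNA, RC and Retroposon). The rule used the annotation and the presence of a read, not any difference between constructs.

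A LINE-1 is a retrotransposon that is transcribed into RNA and can be copied back into the genome. L1M subfamilies are mammal-wide and long inactive, so that their copies are mutated, mostly cut short and often sit in introns, where they are read as a stretch of the host gene's precursor RNA. ZC3H18, called Z18 here, is a CCCH zinc finger protein that links capped nuclear RNA to the NEXT complex and the RNA exosome, which degrade unprocessed and intronic transcripts.

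PAR-CLIP feeds cells 4-thiouridine (4sU), crosslinks RNA to protein by light and recovers the RNA held by a tagged protein. All cells were A375, an established human melanoma line, and carried a transiently transfected pcDNA3.2 plasmid for a V5-tagged protein, with 4sU labelling started 24 h later. The proteins were Clover (a fluorescent protein, the control), full-length ZC3H18 (Z18fl), the truncated protein (Z18trunc), and a version of it whose zinc finger carries changed aromatic residues (Z18truncZnFmut), in 3 libraries each. The cells' own ZC3H18 was present in every group. No input libraries were used, so more binding and more of the RNA in the cell cannot be told apart. Nothing in the labels says that the 3 libraries of a group came from separate cultures, so p-values measure only the spread between these libraries.

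The sequence of an L1MB2 copy in an intron of MON2 (chr12:62509424-62509723, plus strand) is shown first, because it is 1 of the 4 L1MB loci that rose most in Z18fl among those picked by the naming rule. It was read from hg38 on the strand of the element, 5′ to 3′, from the first base of the element and for 300 bases. Capitals mark AATAAA, the letters of the main polyadenylation signal.
L1MB2 in MON2: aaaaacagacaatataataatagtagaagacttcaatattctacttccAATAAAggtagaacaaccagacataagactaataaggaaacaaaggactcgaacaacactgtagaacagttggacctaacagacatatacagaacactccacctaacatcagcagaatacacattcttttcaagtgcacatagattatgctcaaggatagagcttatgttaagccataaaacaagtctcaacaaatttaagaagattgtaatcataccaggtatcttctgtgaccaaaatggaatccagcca
This copy had diverged from its consensus at 15.9% of bases. AATAAA was found on the element's strand in the first 300 bases of 49.7% of the 22925 L1MB elements that long and on either strand of 53.7%. Among the 330 L1MB loci of that length that were tested it was found in 41.2% and 45.8%. Among all 13216 tested loci of that length it was found in 24.1% and 27.2%. Over whole elements 59.2% of tested L1MB loci, 74.9% of tested LINE loci and 43.1% of all tested loci held it. Their median AT content was 63.3%, 59.8% and 50.6%, and its part was not tested. Of the 4 named rises, those in SEPTIN9 and PDXK held 0 AATAAA sites in the bases read, and the one in STARD13 held 1.

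L1MB7 was the largest subfamily, with 8571 elements, followed by L1MB3 with 6112, L1MB8 with 5841, L1MB5 with 3401, L1MB2 with 3092, L1MB4 with 2947 and L1MB1 with 2090. An L1MB element had a median length of 483 bp, a median divergence of 18.2% and a median AT content of 65.8%. On its own strand 30.6% of the elements lay in an intron and 1.46% in an exon, 32.4% were antisense to a gene and 35.5% lay between genes. Most elements were hardly read, since 73.2% had 3 counts or fewer over all libraries, and only 461 had a count in all 12.

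Depth was 16683132 to 17673644 aligned fragments in Clover and 21285347 to 25686948 in the 9 other libraries, and L1MB itself received 7559 to 8920 counts per library in Clover and 15277 to 43748 elsewhere. Z18truncZnFmut replicate 3 stood apart. It had counts on 20706 L1MB elements, against 2446 to 8191 in the other 11 libraries, and 12515 of them, with 43.4% of its L1MB counts, were read in no other library. Values of Z18truncZnFmut are therefore mostly given by library or with and without it. The elements read in it alone are 39.0% of those listed. They are included in the member total, subfamily sizes, lengths, context shares, AATAAA shares and levels per length. Those descriptions are not given without it. Among the other 11 libraries Z18trunc replicate 3 had counts on the most elements, 8191, against 5239 and 5540 in Z18trunc replicates 1 and 2.

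The first comparison asked whether L1MB RNA was recovered with ZC3H18 above the level found with Clover. It was higher with every construct. In counts per 1000000 aligned fragments (CPM), L1MB stood at 535, 442 and 450 in Clover replicates 1 to 3. The Z18fl libraries gave 830.0, 799 and 912 CPM and the Z18trunc libraries 857, 902 and 980 CPM. The Z18truncZnFmut libraries gave 729, 718 and 1806 CPM. All 9 ZC3H18 libraries lay above all 3 Clover libraries. Clover had a mean of 475 ± 51.4 CPM, Z18fl of 847 ± 58.2, Z18trunc of 913 ± 62.3 and Z18truncZnFmut of 1084 ± 625 (SD, n = 3), or of 723 ± 7.84 without replicate 3 (n = 2). Each difference from Clover had an exact two-sided permutation p of 0.1, the smallest that 3 libraries against 3 allow, and 0.214 after Benjamini-Hochberg adjustment over the 30 such tests on L1MB. Z18trunc and Z18fl overlapped (exact p = 0.3). Against Z18trunc, Z18truncZnFmut was higher in the mean by 171 CPM (exact permutation p = 1, n = 3), and without replicate 3 the difference was -189.9 CPM. The 3 comparisons with Clover share its libraries.

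**Figure D1:**
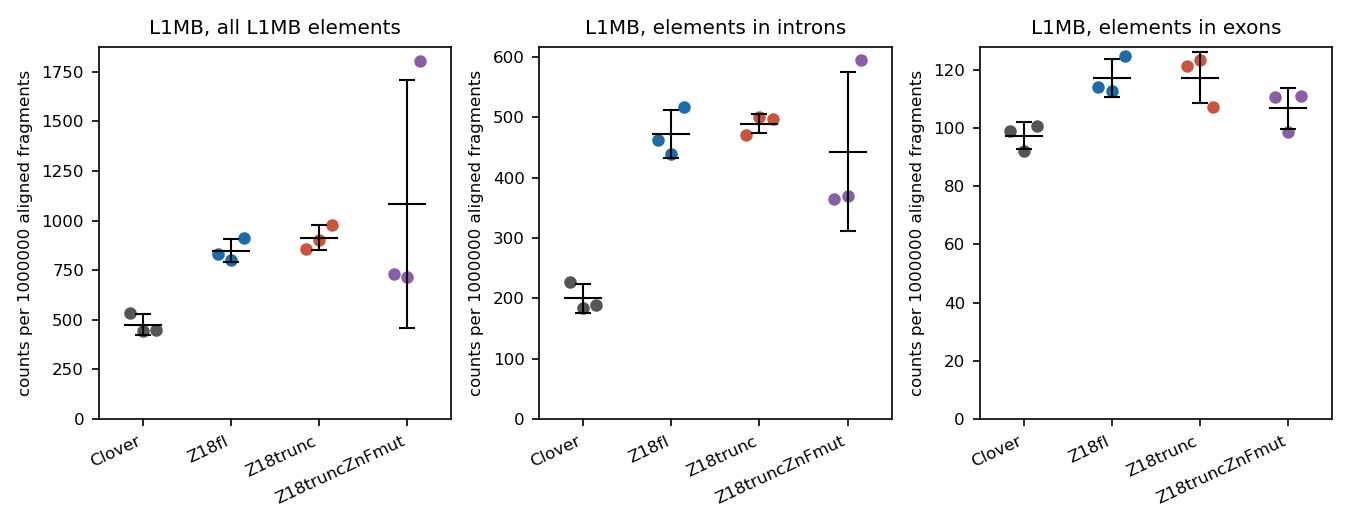
L1MB counts per 1000000 aligned fragments in each library (points) of the 4 groups, with the mean and SD (bars, n = 3), for all L1MB elements, those in introns and those in exons. Intronic elements lie at 184 to 227 with Clover and at 365 to 596 with ZC3H18, while exonic elements run from 92.1 to 125 over all 12.

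In Z18fl and Z18trunc the rise lay mainly at elements in introns. Intronic L1MB gave 227, 184 and 189 CPM with Clover, 463, 439 and 517 with Z18fl, 471, 500.0 and 497 with Z18trunc and 365, 369 and 596 with Z18truncZnFmut. Every ZC3H18 library was above every Clover library. Exonic L1MB had 97.3 ± 4.64 CPM with Clover, 117 ± 6.56 with Z18fl, 117 ± 8.84 with Z18trunc and 107 ± 7.10 with Z18truncZnFmut. L1MB between genes also rose, from 82.7 ± 13.8 CPM with Clover to 139 ± 8.17 with Z18fl and 165 ± 32.5 with Z18trunc. Antisense to a gene it had 95.6 ± 12.8, 118 ± 3.98 and 141 ± 27.9 CPM. In both places the Z18fl and Z18trunc libraries lay above all Clover libraries. As a share of L1MB counts, introns held 42.0% ± 0.449 in Clover, 55.8% ± 0.854 in Z18fl and 53.7% ± 2.58 in Z18trunc, with no overlap with Clover (exact permutation p = 0.1, adjusted 0.214, n = 3). In Z18truncZnFmut the share was 50.1%, 51.5% and 33% in replicates 1 to 3, so that replicate 3 lay below Clover and the other libraries above it (exact p = 0.8). Without it the mean was 50.8%. Replicate 3 instead had 28.5% of its L1MB counts antisense to genes and 32.3% between genes, against 13.4% to 20.6% and 16.0% to 20.7% in the other 11 libraries. Z18trunc replicate 3 had 50.7% in introns and 20.7% between genes. Z18trunc replicates 1 and 2 had 54.9% and 55.4% in introns, and 16.6% and 16.7% between genes. Counts were also less concentrated with ZC3H18. The 10 highest elements of a library held 10.6% to 12.9% of its L1MB counts in Clover and 6.09% to 8.97% in the ZC3H18 libraries, apart from 3.08% in Z18truncZnFmut replicate 3.

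All 7 subfamilies rose in Z18fl and in Z18trunc. Counts were summed over each subfamily and tested by edgeR's quasi-likelihood test among all subfamilies, and a call is a Benjamini-Hochberg adjusted p under 0.05. These fold changes are relative to the bulk of other elements and are therefore smaller than those per aligned fragment. In Z18fl all 7 L1MB subfamilies were called higher and none lower, where 20.3% of the 913 subfamilies tested were called higher and 20.5% lower. In Z18trunc all 7 were again called higher and none lower, where 14.5% of 924 were called higher and 12% lower.

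L1MB2 rose most in both. Clover libraries gave 36.8, 34.2 and 33.5 CPM, Z18fl libraries 65.5, 66.3 and 79.7, Z18trunc libraries 81.5, 88.9 and 90.3, and the mutant 66.3, 62.7 and 163. The groups did not overlap with Clover, and Z18trunc lay above Z18fl in every library. The log2 fold change was 0.55 ± 0.08 (SE) in Z18fl (edgeR adjusted p = 4.8e-05) and 0.83 ± 0.09 in Z18trunc (edgeR adjusted p = 2.2e-06). L1MB1 had log2 fold changes of 0.47 and 0.74. L1MB4 had 0.48 and 0.57, L1MB8 0.40 and 0.43, and L1MB3 0.32 and 0.45. The smallest rises were those of L1MB7, 0.31 and 0.35, and of L1MB5, 0.28 and 0.26 (edgeR adjusted p = 0.0041 and 0.039).

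**Figure D2:**
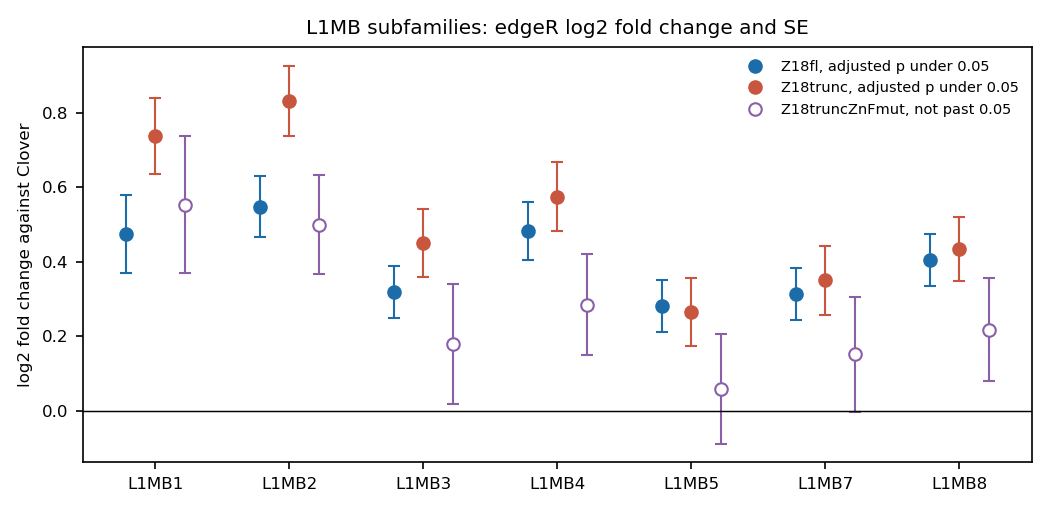
Log2 fold change against Clover (edgeR) of the 7 L1MB subfamilies in Z18fl, Z18trunc and Z18truncZnFmut, with SE bars from 3 libraries a group; filled points passed an adjusted p of 0.05 and open points did not. L1MB1 and L1MB2 lie highest in Z18trunc, at 0.74 and 0.83, and the open points of Z18truncZnFmut run from 0.06 to 0.55.

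In Z18truncZnFmut no L1MB subfamily was called by edgeR in either direction, where 1.31% of 919 subfamilies were called higher and 0% lower. The log2 fold changes ran from 0.06 ± 0.15 for L1MB5 to 0.55 ± 0.18 for L1MB1 (edgeR adjusted p = 0.15), with 0.50 ± 0.13 for L1MB2 (adjusted p = 0.11). At an unadjusted p under 0.05, 2 subfamilies passed, and DESeq2 called 1, where it called 42 of 919 higher and 26 lower. Without replicate 3 edgeR called 4 higher, L1MB1, L1MB2, L1MB3 and L1MB4, with L1MB2 at 0.55. In that fit 99 of 891 subfamilies were called higher and 53 lower.

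Between constructs no L1MB subfamily was called. For Z18trunc against Z18fl, where 1.58% of 947 subfamilies were called higher and 2.43% lower, edgeR gave L1MB1 a log2 difference of 0.24 ± 0.09 (adjusted p = 0.14) and L1MB2 0.26 ± 0.08 (adjusted p = 0.11). These 2 passed an unadjusted p of 0.05, and the other 5 lay between -0.05 and 0.10; DESeq2 called none. For Z18truncZnFmut against Z18trunc all 7 differences were below 0, from -0.14 for L1MB1 to -0.30 for L1MB2 (but all above 0, from 0.16 to 0.45, with library sizes from aligned fragments), with 1 past an unadjusted p of 0.05 and none called by edgeR or DESeq2, where 0% of 956 subfamilies were called higher and 0% lower. Without Z18truncZnFmut replicate 3 all 7 of its mean levels per aligned fragment were below those of Z18trunc, for example 32.3 against 46.5 CPM for L1MB1, 64.5 against 86.9 for L1MB2 and 198 against 242 for L1MB7.

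Per length of listed sequence, L1MB1 was the least read subfamily in Clover, at 11 ± 1.98 CPM per Mb, and L1MB5 the most, at 31.0 ± 2.50. In Z18trunc L1MB1 reached 25.8 ± 2.70 CPM per Mb and L1MB2 44.2 ± 2.41, against 17.7 ± 0.896 for L1MB2 in Clover. L1MB3 and L1MB5 were the most read in Z18trunc, at 53.1 ± 2.81 and 52.3 ± 2.54, which overlapped. The log2 ratio of L1MB1 and L1MB2 to the other 5 subfamilies lay at -2.98 to -2.90 with Clover, at -2.87 to -2.67 with Z18fl and at -2.57 to -2.51 with Z18trunc. In Z18truncZnFmut it was -2.67, -2.72 and -2.40. This grouping was chosen after the subfamily values were seen and was given no test.

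L1MB lies between younger and older L1 groups, and its counts were set against both within each library. Of all LINE counts, L1MB made up 4.83% ± 0.148 with Clover, 4.90% ± 0.218 with Z18fl, 4.47% ± 0.343 with Z18trunc and 4.65% ± 0.429 with Z18truncZnFmut. Each construct overlapped Clover (exact permutation p = 0.8, 0.3 and 0.5, n = 3). For Z18truncZnFmut that overlap rested on replicate 3, at 5.12%, since replicates 1 and 2, at 4.29% and 4.54%, lay below all Clover libraries (4.72% to 5%) and had a mean of 4.41% ± 0.177 (n = 2). The overlap of Z18trunc also rested on its replicate 3, at 4.86%, since its replicates 1 and 2 were at 4.23% and 4.31%.

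Relative to the next younger group, L1MA5 to L1MA10, L1MB gained less. The log2 ratio of L1MB to L1MA5-10 counts was 1.56, 1.56 and 1.70 with Clover, 1.36, 1.44 and 1.25 with Z18fl, 1.07, 1.03 and 1.01 with Z18trunc and 1.19, 1.22 and 0.74 with Z18truncZnFmut. All 3 constructs lay below Clover, and Z18trunc also below Z18fl, without overlap. The mean differences from Clover were -0.26, -0.57 and -0.56, and Z18trunc differed from Z18fl by -0.31 (each exact permutation p = 0.1, adjusted 0.214, n = 3). Without replicate 3 Z18truncZnFmut differed from Clover by -0.40. Relative to the older L1MC and L1MD elements L1MB gained more in 2 constructs. That log2 ratio was -0.66 ± 0.01 in Clover, -0.52 ± 0.02 in Z18fl and -0.56 ± 0.03 in Z18trunc, with no overlap with Clover (exact permutation p = 0.1, adjusted 0.214, n = 3). In Z18truncZnFmut it was -0.58, -0.59 and -0.71, above Clover in 2 libraries and below in replicate 3 (exact p = 0.4). The AT content of L1MB elements weighted by their counts was 60.3% to 60.9% with Clover, 61.3% to 61.8% with Z18fl and 62.0% to 62.6% with Z18trunc, and it reached 64.4% in Z18truncZnFmut replicate 3. The part of base composition in these ratios was not tested.

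**Figure D3:**
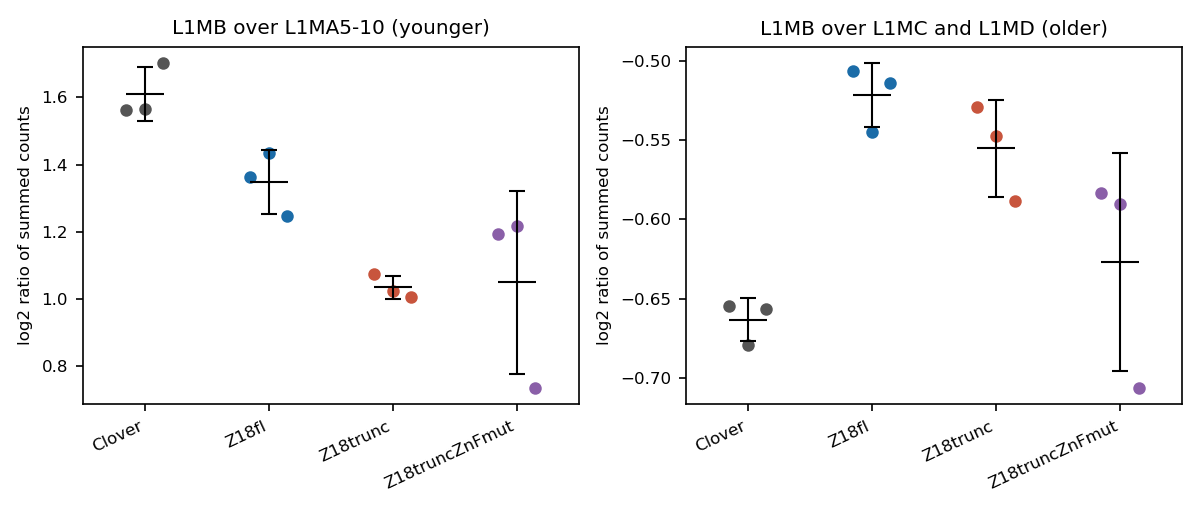
Log2 ratio of summed L1MB counts to those of the younger L1MA5-10 group (left) and of the older L1MC and L1MD group (right) in each library (points), with mean and SD (n = 3). On the left the means fall from 1.61 in Clover to 1.35 in Z18fl and 1.03 in Z18trunc, and on the right Z18fl and Z18trunc lie above Clover.

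The choice of members used strand, so the share of reads on the element's strand is given as a description. Of the L1MB reads of both strands, 51.3%, 49.7% and 51.2% lay on the strand of the element in Clover. Z18fl libraries had 59.7%, 58.2% and 61.4% there, Z18trunc libraries 61.7%, 61.4% and 57.8%, and the mutant 59.3%, 56.7% and 51.7%. Every ZC3H18 library was above every Clover library, Z18truncZnFmut replicate 3 by the least. Over all LINE elements the mean share rose from 59.3% in Clover to 66.4% in Z18fl and 68.4% in Z18trunc, and over all 6 classes it was 60.5%, 61.7% and 62.6%.

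Single loci were tested by the same method over all elements with enough counts. Of the 32054 L1MB elements, 380 were tested in at least 1 comparison, holding 36.4% of L1MB counts, and 31674 were too lowly read for any test. A locus with few counts in Clover could pass that filter only through the construct, so the counts below describe tested loci and not L1MB as a whole.

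In Z18fl 73 of 188 tested L1MB loci were called higher and 28 lower, which is 38.8% and 14.9%, where 28.3% of the 12098 loci tested were called higher and 24.6% lower. The median log2 fold change was 0.50 over L1MB loci and 0.01 over all loci. In Z18trunc 66 of 200 were called higher and 16 lower, 33% and 8%, where 22.5% of 13204 were called higher and 13.4% lower, with medians of 0.28 and -0.03. In Z18truncZnFmut 14 of 132 were called higher and 4 lower, 10.6% and 3.03%, where 12.3% of 10152 were called higher and 4.83% lower, with medians of 0.02 and -0.05. Without replicate 3 of Z18truncZnFmut the calls were 5 higher and 2 lower of 125, where 1025 and 276 of 9894 loci were called. Without its replicate 2 they were 7 and 1 of 110, where 1065 and 258 of 9100 were. Leaving out a Clover library let more loci pass the filter: the higher calls of Z18fl became 124 without Clover replicate 1 and 117 without replicate 2, and those of Z18trunc 109, 109 and 107 without replicates 1, 2 and 3. The lower calls of Z18fl became 15 without its replicate 1 or 3, those of Z18trunc 8 to 10 without any of its own libraries or Clover replicate 3, and those of Z18truncZnFmut 1 without Clover replicate 3. Library sizes from aligned fragments were also used in place of TMM. The median of all loci then moved to 0.48 with Z18fl, 0.39 with Z18trunc and 0.24 with Z18truncZnFmut. The L1MB calls became 107 higher and 14 lower of 211, 99 and 5 of 216, and 32 and 1 of 159. Over all loci they were 4934 and 1699 of 12886, 4280 and 494 of 13373, and 2013 and 133 of 11354.

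Most L1MB loci called higher were intronic. In Z18fl 47 of 81 intronic loci were called higher and 3 lower, against 12 and 12 of 41 exonic loci. Antisense to a gene they were 5 and 8 of 34, and between genes 9 and 5 of 32. Of all exonic loci 11.5% were called higher and 42.4% lower, against 29.3% and 29.3% of those of L1MB. Antisense to a gene the shares were 18.8% and 28.1% of all loci, against 14.7% and 23.5% of L1MB. Between genes they were 28.1% and 22.1% of all loci, against 28.1% and 15.6% of L1MB. The intronic share called higher was 58.0%, against 62.0% of intronic LINE loci and 41.8% of all intronic loci. In Z18trunc 48 of 93 intronic loci were called higher and 1 lower, against 7 and 7 of 40 in exons. The intronic share was 51.6%, against 64.5% of intronic LINE loci and 35.4% of all intronic loci. Of all exonic loci 4.08% were called higher and 26.6% lower, against 17.5% and 17.5% of those of L1MB. In Z18truncZnFmut 9 of 48 intronic loci were called higher and none lower, against 2 and 3 of 34 in exons. The intronic share was 18.8%, against 48.0% of intronic LINE loci and 21.3% of all intronic loci. Of all exonic loci 0.914% were called higher and 10.7% lower, against 5.88% and 8.82% of those of L1MB. The median log2 fold change of intronic L1MB loci was 1.35 with Z18fl, 1.46 with Z18trunc and 0.18 with Z18truncZnFmut. Over all tested intronic LINE loci it was 1.40, 1.73 and 1.01. Intronic loci of every class had 0.64, 0.47 and 0.22. Each comparison had its own filter, so the 81, 93 and 48 intronic L1MB loci are different sets. Over every context, L1MB loci called higher had a median mean count in Clover of 4.33 for Z18fl and 2.67 for Z18trunc. With the construct these medians were 30.5 and 28.8. Loci so low in Clover could pass the filter only through the construct, which favours higher calls and positive fold changes. How much of the contrast between introns and exons came from the filter was not tested. With all 12 libraries in a single fit the same 402 L1MB loci, of every context, were tested in each comparison. Their medians were 0.78 with Z18fl, 0.59 with Z18trunc and 0.44 with Z18truncZnFmut, against 0.09, -0.01 and 0.06 over all 23343 loci.

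**Figure D4:**
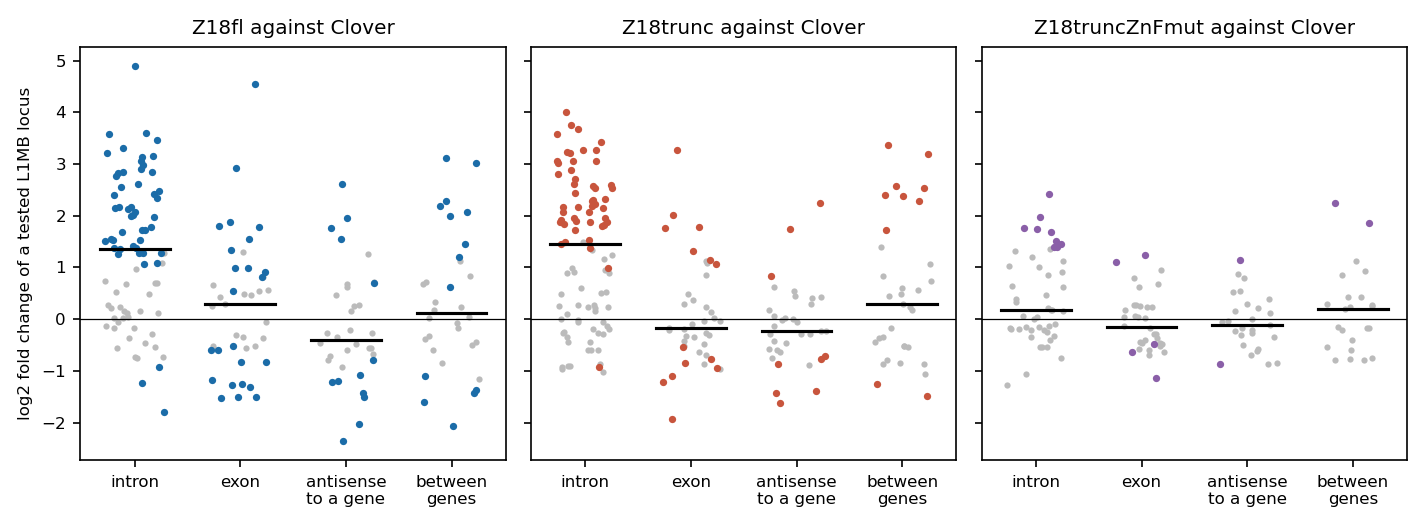
Log2 fold change against Clover of each tested L1MB locus (points; coloured where edgeR's adjusted p was under 0.05) by its place in the gene annotation, in Z18fl (188 loci), Z18trunc (200) and Z18truncZnFmut (132), with black lines at the medians. Intronic loci have medians of 1.35, 1.46 and 0.18, and exonic loci of 0.29, -0.18 and -0.15.

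Both AT content and length went with the change in Z18trunc, among repeat loci in general as among L1MB. Ranked by AT and cut at 57.7% and 64.6% into groups of like size, 13 of 67 loci in the lowest group, 22 of 66 in the middle and 31 of 67 in the highest were called higher, or 19.4%, 33.3% and 46.3%. Within the same bounds 31.9%, 57.0% and 59.3% of all LINE loci and 11.1%, 49.9% and 54.4% of all loci were called higher. Ranked by length, 9 of 68 of the shortest L1MB loci, 19 of 65 of the middle and 38 of 67 of the longest were called higher, with median log2 fold changes of -0.26, 0.26 and 1.78, and within those bounds 7.09%, 22.1% and 50.5% of all loci were. The parts of AT content and length were not separated. Within introns the same cuts gave 6 of 21, 16 of 35 and 26 of 37, against 46.9%, 70.2% and 74.3% of intronic LINE loci. In Z18fl the cuts fell at 56.8% and 64.1% and gave 21 of 63, 24 of 62 and 28 of 63, against 36.2%, 52.4% and 51.9% of all LINE loci. Across loci, which share their libraries and differ in length, log2 fold change and AT content had a Pearson correlation of 0.26 and a Spearman correlation of 0.24 over 200 loci in Z18trunc, against 0.11 and 0.09 over 188 in Z18fl. By subfamily, 13 of 20 tested L1MB2 loci were called higher in Z18trunc and 6 of 14 in Z18fl, against 12 of 53 and 17 of 54 L1MB7 loci.

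The largest rise of a named locus was that of the L1MB3 copy in an intron of SEPTIN9, a septin of the cytoskeleton (328 bp). It had 1, 0 and 0 counts in the Clover libraries, 27, 15 and 26 with Z18fl, 17, 21 and 6.52 with Z18trunc and 21, 6 and 14 with Z18truncZnFmut. All 9 ZC3H18 libraries were above Clover. In Z18fl edgeR gave a log2 fold change of 4.90 ± 0.80 (adjusted p = 7.4e-05), and the ratio per aligned fragment was 48.7 with an interval from 8.46 to 1953 (95%, exact, counting error only). In the other 2 comparisons with Clover it did not pass the filter. A second L1MB3 copy of the same gene, chosen after its values were seen, at chr17:77343926, was called higher with all 3 constructs, by 2.17, 1.91 and 1.45 on the log2 scale.

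The L1MB4 copy in an intron of PDXK, which encodes pyridoxal kinase, was highest in Z18fl. The Clover libraries gave 0, 0 and 3 counts, those of Z18fl 30, 20 and 20, those of Z18trunc 6, 9 and 3, and the mutant 3, 2 and 4. The Z18fl libraries lay above all 9 others. Per aligned fragment the ratio to Clover was 4.31 in Z18trunc, with a counting interval from 1.26 to 22.8. In Z18truncZnFmut that ratio was 2.22 (0.553 to 12.7). The locus did not pass the filter in either comparison with Clover. The log2 fold change was 3.60 ± 0.72 in Z18fl (edgeR adjusted p = 4.7e-04), a ratio of 16.7 per aligned fragment with a counting interval from 5.49 to 83.1, and Z18trunc was lower than Z18fl by -2.03 ± 0.42 (edgeR adjusted p = 0.0062). Another L1MB4 fragment of PDXK, at chr21:43744563 and also chosen after its values were seen, was also called lower in Z18trunc than in Z18fl, by -1.13 ± 0.23 (edgeR adjusted p = 0.0058).

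L1MB2 copies in STARD13 and MON2 rose in Z18fl and Z18trunc. The one in an intron of STARD13 had 0, 0 and 3 counts in the Clover libraries, 21, 16 and 28 with Z18fl, 23, 26 and 20 with Z18trunc and 14, 15 and 13 with Z18truncZnFmut. Its log2 fold changes were 3.47 ± 0.71 and 3.58 ± 0.72 (edgeR adjusted p = 5.6e-04 and 6.1e-04), or ratios of 15.5 (counting interval 5.08 to 77.3) and 16.5 (5.42 to 82.1) per aligned fragment. The one in MON2, a protein of endosome-to-Golgi traffic (chr12:62509424-62511816, 2393 bp, with its first bases printed above), had 2, 2 and 1 counts in the Clover libraries, 23, 21 and 51 with Z18fl, 48, 67 and 35 with Z18trunc and 14, 16 and 24 with Z18truncZnFmut. The log2 fold changes were 3.30 ± 0.57 in Z18fl and 4.00 ± 0.49 in Z18trunc (edgeR adjusted p = 1.3e-04 and 4.1e-06), and Z18truncZnFmut lay below Z18trunc in every library without passing the test (-1.24 ± 0.32, edgeR adjusted p = 0.067). At both loci every ZC3H18 library was above Clover.

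The remaining rises named for Z18trunc were L1MB3 copies. The copy in an intron of LINC01060, a long noncoding RNA (chr4:188461070-188463763), had 3, 0 and 2 counts in the Clover libraries, 26, 19 and 34 with Z18fl, 32, 42 and 26 with Z18trunc and 24, 25 and 19 with Z18truncZnFmut. The copy between genes at chr13:113642030-113644024 had 0, 2 and 1 counts in the Clover libraries, 18, 13 and 16 with Z18fl, 25, 21 and 14 with Z18trunc and 6, 8 and 10 with Z18truncZnFmut. Both were above Clover in all 9 libraries, with log2 fold changes in Z18trunc of 3.42 ± 0.58 and 3.38 ± 0.70 (edgeR adjusted p = 1.3e-04 and 8.1e-04). For the copy between genes the ratio per aligned fragment was 14.4, with a counting interval from 4.69 to 71.6.

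Only 2 rises met the naming rule in Z18truncZnFmut. L1MB2 in an intron of TNFRSF10B, a death receptor for TRAIL, had 5, 4 and 5 counts in the Clover libraries, 18, 22 and 28 with Z18fl, 33, 38 and 22 with Z18trunc and 24, 19 and 32 with Z18truncZnFmut. It rose in all 3 constructs, by 1.41, 1.88 and 1.76 on the log2 scale (edgeR adjusted p = 0.012, 0.0020 and 0.012). L1MB5 antisense to FZR1, an activator of the anaphase-promoting complex (chr19:3520966-3521253), had 5, 15 and 22 counts in the Clover libraries. It had 36, 31 and 56 with Z18fl, 37, 46 and 19 with Z18trunc and 46, 41 and 57 with Z18truncZnFmut. In Z18truncZnFmut the log2 fold change was 1.14 ± 0.38 (edgeR adjusted p = 0.040). That call was lost under 7 other settings and kept under 6. In Z18fl and Z18trunc the locus was not called, at 0.69 ± 0.38 and 0.44 ± 0.42 (edgeR adjusted p = 0.13 and 0.43). Per aligned fragment the ratios to Clover were 2.10, 1.74 and 2.53 in Z18fl, Z18trunc and Z18truncZnFmut. In CPM all Z18fl libraries lay above Clover, while Z18trunc overlapped it. Neither the TNFRSF10B nor the FZR1 locus was among the 5 higher loci once replicate 3 of Z18truncZnFmut was left out.

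The loci named for a fall against Clover lay antisense to a gene or in an exon. L1MB2 antisense to MAN1B1, a mannosidase of the endoplasmic reticulum (chr9:137101778-137101859, 82 bp), had 40, 42 and 37 counts in the Clover libraries, 15, 36 and 28 with Z18fl, 29, 20 and 29 with Z18trunc and 48, 24 and 31 with Z18truncZnFmut. In CPM every Clover library was above every ZC3H18 library, with log2 fold changes of -1.43 ± 0.30, -1.43 ± 0.27 and -0.87 ± 0.28 (edgeR adjusted p = 7.3e-04, 4.3e-04 and 0.033). L1MB7 in the 3′ UTR of MBD3, a subunit of the NuRD complex (chr19:1574338-1574628), had 45, 38 and 31 counts in Clover and 33, 19 and 33 in Z18fl, a log2 fold change of -1.27 ± 0.28 (edgeR adjusted p = 9.3e-04). Z18trunc, at 51, 47 and 43, and Z18truncZnFmut, at 71, 47 and 65, were not called there. In Z18fl 3 of the 28 L1MB loci called lower were intronic, where 684 of the 2981 lower calls over all loci were.

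**Figure D5:**
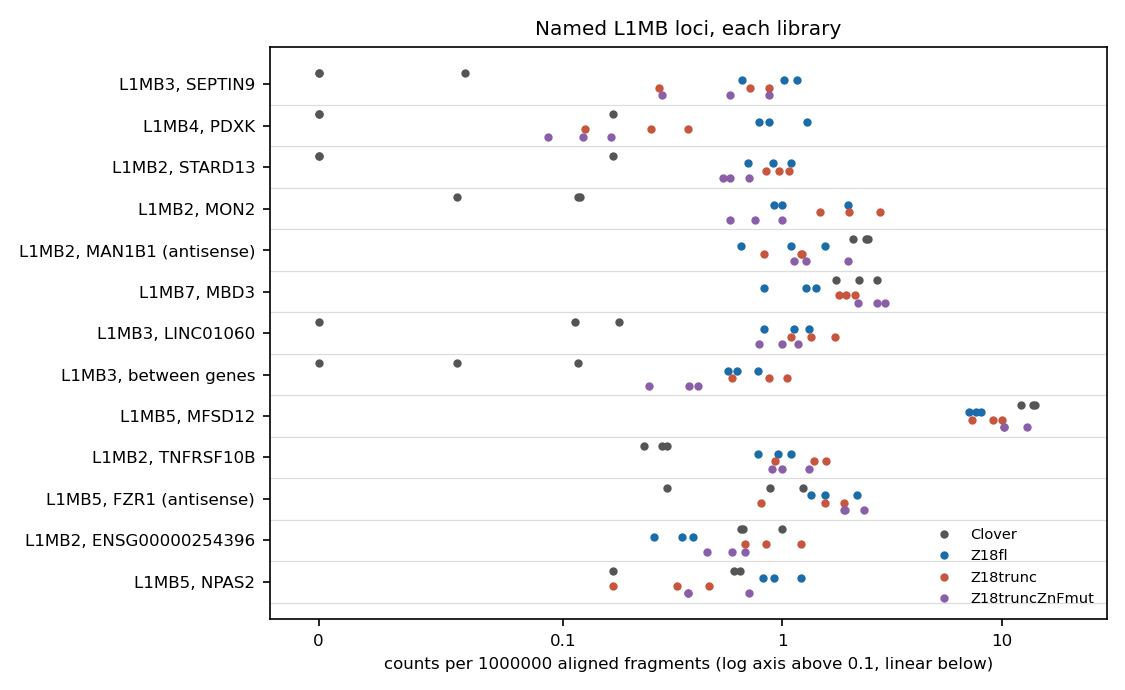
Counts per 1000000 aligned fragments in each library (points, coloured by construct; log axis above 0.1 and linear below) at the L1MB loci named by rule, each labelled with its subfamily and the gene it lies in. At the SEPTIN9, STARD13, MON2 and LINC01060 loci the Clover points lie left of all others, and at PDXK only the Z18fl points lie far right.

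The most read L1MB elements changed differently from these. The highest, L1MB5 in the 3′ UTR of MFSD12, a cysteine transporter of melanosomes and lysosomes (chr19:3538308-3538752), had 203, 236 and 249 counts in the Clover libraries, 163, 183 and 196 with Z18fl, 237, 177 and 214 with Z18trunc and 312, 216 and 247 with Z18truncZnFmut. Its mean was 10.2 CPM, and its log2 fold changes were -1.19 ± 0.14, -0.95 ± 0.15 and -0.48 ± 0.16 (edgeR adjusted p = 2.8e-06, 6.1e-05 and 0.038). In CPM the Z18truncZnFmut libraries overlapped those of Clover. Another 130 counts lay on its other strand. Reads of the host mRNA and of the element cannot be told apart at such a place.

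L1MB3 in the 3′ UTR of FBXO22, the substrate receptor of a ubiquitin ligase (chr15:75938784-75941922, 3139 bp), went the other way. It had 76, 53 and 76 counts in the Clover libraries, 150, 157 and 233 with Z18fl, 288, 367 and 248 with Z18trunc and 255, 192 and 240 with Z18truncZnFmut. The rises were 0.54 ± 0.18, 1.31 ± 0.17 and 1.10 ± 0.18 on the log2 scale (edgeR adjusted p = 0.017, 8.6e-06 and 1.2e-04). The other 3 of the 5 highest were L1MB7 copies, 2 in SDCBP, which encodes syntenin, at 64.7% and 30.4% of their length in its 5′ UTR, and 1 in an intron of PCNX4. Their log2 fold changes against Clover lay between -0.36 and 0.42 and none was called.

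Z18trunc differed from Z18fl at few loci. Of 356 tested L1MB loci 4 were called higher and 11 lower, where 2.62% of 19413 loci were called higher and 3.13% lower. The 4 higher ones were both FBXO22 copies, an L1MB3 in an intron of ZNF133 and an L1MB2 in an exon of the lncRNA ENSG00000254396, listed here because they are so few, although only the last met the naming rule. The second FBXO22 copy (chr15:75937533-75938136) had 9, 9 and 9 counts in the Clover libraries, 23, 13 and 33 with Z18fl, 57, 71 and 66.5 with Z18trunc and 39, 23 and 39 with Z18truncZnFmut, and Z18trunc exceeded Z18fl by 1.43 ± 0.25 on the log2 scale (edgeR adjusted p = 0.0018). The ZNF133 copy (chr20:18303347-18304795) had 6, 2 and 8 counts in Z18fl and 22, 21 and 14 in Z18trunc (1.74 ± 0.45, edgeR adjusted p = 0.023). The L1MB2 copy at chr9:27102641-27103276 had 6, 9 and 9 counts in Z18fl and 29.0, 16.4 and 19.9 in Z18trunc, with 11, 17 and 11.4 in Clover (1.35 ± 0.39, edgeR adjusted p = 0.043). Against Clover that copy was lower in Z18fl (-1.53, edgeR adjusted p = 0.0064) and at -0.09 in Z18trunc, and its call between constructs was kept under 3 of 13 other settings. Without Z18fl replicate 1 or 2 the calls in this comparison were 1 higher, with 6 and 4 lower, and without Z18trunc replicate 1 or 2 they were 2 higher and 6 lower. Over all loci they were, in that order, 147 and 267 of 22942, 149 and 213 of 23327, 159 and 224 of 23293, and 234 and 270 of 22420. At each of the 4 higher loci the Z18trunc libraries lay above those of Z18fl.

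Besides PDXK, the fall named by rule in Z18trunc was L1MB5 in an intron of NPAS2, a transcription factor of the circadian clock (chr2:100880069-100880778). It had 10, 11 and 3 counts in the Clover libraries, 28, 21 and 21 with Z18fl, 11, 8 and 4 with Z18trunc and 9, 15 and 9 with Z18truncZnFmut. Z18trunc was below Z18fl in all libraries, by -1.68 ± 0.39 (edgeR adjusted p = 0.015).

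The mutated zinc finger was compared with Z18trunc at 287 L1MB loci. None was called higher and 1 lower, where 0.368% of 16833 loci were called higher and 0.351% lower. At an unadjusted p under 0.05 there were 11 and 32, and DESeq2 called none higher and 2 lower. The single locus was an L1MB4 copy in an exon of RAE1, a factor of mRNA export (chr20:57371132-57372183), which met no naming rule and is given for that count. It had 11, 12 and 16 counts in the Clover libraries, 77, 77 and 105 with Z18fl, 91, 75 and 72 with Z18trunc and 27, 32 and 34 with Z18truncZnFmut. The mutant libraries lay below those of Z18trunc and above those of Clover in counts, with a log2 difference from Z18trunc of -1.13 ± 0.24 (edgeR adjusted p = 0.032). It was higher than Clover in Z18fl and Z18trunc, by 1.87 and 1.78, and not called in Z18truncZnFmut (0.63, edgeR adjusted p = 0.28). Without Z18truncZnFmut replicate 2 or 3 the number of lower calls was again 1, and without its replicate 1 or any Z18trunc library it was 0.

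Several host genes carried more than 1 called L1MB locus. Of 56 genes with a called intronic locus, 9 had more than 1. The number of genes with more than 1 tested intronic locus is not given, so this count has no background. EHMT1, which encodes a histone H3K9 methyltransferase, had the most, with 4 fragments on chromosome 9, and is described for that count. Its fragments from chr9:137733677 to 137739080 lie close together and are not separate cases. The longest (chr9:137733677-137735605) had 15, 4 and 4 counts in the Clover libraries, 76, 67 and 90 with Z18fl, 88, 67 and 91 with Z18trunc and 52, 51 and 38 with Z18truncZnFmut. All ZC3H18 libraries were above Clover, and it rose by 2.48 ± 0.36, 2.59 ± 0.38 and 1.97 ± 0.43 on the log2 scale (edgeR adjusted p = 2.6e-05, 2.6e-05 and 0.0020). All 4 fragments rose in Z18fl, by 1.38 to 2.48, and in Z18trunc, by 1.91 to 3.07. The 2 repeat loci outside L1MB that were tested in EHMT1 introns in Z18fl had a median of 1.64, and the 3 in Z18trunc a median of 2.53.

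Where an intronic L1MB locus had at least 3 other tested repeat loci in the introns of its gene, the median of those others was taken as the level of the host intron. Over 26 such loci in Z18trunc the L1MB log2 fold change minus that median had a median of -0.23 (quartiles -0.58 and 0.41), and over 19 in Z18fl 0.17 (-0.38 and 0.72). The L1MB log2 fold change itself had a median of only 0.05 over those 26 loci and 0.21 over those 19. Over all 93 and 81 tested intronic L1MB loci it was 1.46 and 1.35, so these subsets do not stand for the loci that rose. Across these loci, which share libraries and some genes, the Pearson correlation of the L1MB change with the host median was 0.70 in Z18trunc and 0.48 in Z18fl, and the Spearman correlation 0.65 and 0.59. In Z18truncZnFmut they were 0.19 and 0.33 over 9 loci, for Z18trunc against Z18fl 0.04 and 0.13 over 94, and for Z18truncZnFmut against Z18trunc 0.07 and 0.12 over 60. L1MB lay above its host median at 10 of 26 loci in Z18trunc and 11 of 19 in Z18fl.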

How the data were processed

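The tables held reads per repeat element from 12 PAR-CLIP libraries made with an antibody to V5, 3 for each of 4 constructs in A375 cells, from ribo-minus RNA with stranded libraries and, per the study's methods, no size selection of the protein. The authors trimmed reads (cutadapt 4.6 is among the tools in the submitters' processing notes) and ran SQuIRE against hg38, with 1 table per library. Per the file headers the deposited values were uniquely mapping read counts, aligned fragment counts, expected counts (unique reads plus shares of multimapping reads assigned by expectation maximization), a score, which is the counts assigned to an element as a percent of the reads that touch it, and the divergence from the repeat consensus in parts per 1000. Such shares make young, near-identical copies less certain than old ones. Uniquely mapping reads made up 68.3% to 77.2% of L1MB counts.

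The members and lists were chosen with earlier results of these data known. Same-strand expected counts were rounded to whole numbers and tested over all loci, or summed over subfamilies, with edgeR 4.0.16 in R 4.3.3 (TMM, filterByExpr with minimum counts of 10 and 15 in total, quasi-likelihood test, Benjamini-Hochberg adjustment over all features tested, threshold 0.05), separately for 5 comparisons. For sums per 1000000 aligned fragments, shares and ratios, two-sided exact permutation tests were run in SciPy 1.17.1. These steps were tested on simulated data. Context came from GENCODE 44 on the same build: an element was exonic where at least 50% of its length lay in exons on its strand.

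Named loci were the 4 largest rises and 2 largest falls against Clover, and 2 of each between constructs, among called loci with groups that did not overlap in CPM, at least 20 counts and a score of 80 in the mean of the higher group, plus the 5 elements of highest mean level. Where fewer met this, fewer were named. The sequence of the highest element was left out because it lies in a UTR. The sequence printed was read from hg38 with pysam 0.24.0, and those of the other named loci are not reported here. Intervals of ratios are exact binomial intervals at 95% and cover counting error only. Alternatives were DESeq2 1.42.0, other library sizes, filters, strands, unique reads, a score minimum of 80, a stricter intron rule, a replicate block, all libraries in 1 fit and each library left out. Leaving out the 5 highest elements was added after seeing the data.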

Additional observations from a re-analysis of the deposited data

Results flagged for a closer look

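Reads on the strand opposite to L1MB elements lay outside the comparisons of the report. Their mean per 1000000 aligned fragments was 461 with Clover, 569 with Z18fl, 605 with Z18trunc and 912 with Z18truncZnFmut, or 524 without replicate 3 of the last. The Z18fl and Z18trunc libraries all exceeded those of Clover (exact permutation p = 0.1, n = 3), while Z18truncZnFmut overlapped Clover (exact p = 0.2).

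At 3 loci Z18trunc differed from Z18fl in the direct edgeR test of the 2 constructs. These loci were named because they were called in that test, so it lends them no further support. The difference was 1.35 on the log2 scale for L1MB2 at chr9:27102641, -2.03 for L1MB4 in PDXK and -1.68 for L1MB5 in NPAS2. The PDXK and NPAS2 loci were not tested in Z18trunc against Clover.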

How the results depend on the processing

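The direction of L1MB against Clover per 1000000 aligned fragments, of its ratio to L1MA5-10 in the same comparisons, and of its intron share in Z18fl and Z18trunc was the same under all alternatives run. Of the other values, those that turned or moved are given here by setting, and the cause was not tested where the setting does not itself remove loci or libraries. With a score of at least 80, Z18trunc minus Z18fl became -35.6 CPM, the differences in the share of LINE counts became -0.358 points (Z18fl minus Clover), 0.137 (Z18truncZnFmut minus Clover) and 0.196 (Z18trunc minus Z18fl), the L1MA5-10 ratio -0.094 (Z18truncZnFmut minus Z18trunc), the L1MC and L1MD ratio -0.026 (Z18truncZnFmut minus Clover) and the same-strand share -2.10 points (Z18trunc minus Z18fl). Per 1000000 element counts, Z18trunc minus Z18fl was -224 and Z18truncZnFmut minus Z18trunc -148.

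With reads on either strand, the share of LINE counts (Z18fl minus Clover) was -0.219, the L1MA5-10 ratio (Z18truncZnFmut minus Z18trunc) -0.057 and the L1MC and L1MD ratio (Z18truncZnFmut minus Clover) -0.044. The lower calls became 47 of 292 in Z18fl, 8 of 219 in Z18truncZnFmut and 2 of 389 for Z18truncZnFmut against Z18trunc. Over all loci they were 3939 of 19200, 448 of 16035 and 49 of 25548. The higher calls for Z18trunc against Z18fl became 8 of 471, where 597 of 28939 loci were. The subfamilies called higher were 4 in Z18fl and 3 in Z18trunc, where 179 and 125 of 985 were. L1MB7 in Z18truncZnFmut was at -0.016, L1MB4 in Z18trunc against Z18fl at -0.029 and L1MB1 in Z18truncZnFmut against Z18trunc at 0.13. With uniquely mapping reads only, the share of LINE counts (Z18fl minus Clover) was -0.106 and the L1MC and L1MD ratio (Z18truncZnFmut minus Clover) -0.013. The higher calls were 43 of 133 in Z18fl, 41 of 131 in Z18trunc and 4 of 79 in Z18truncZnFmut. Over all loci they were 2540 of 8643, 2094 of 8593 and 826 of 6678. The lower calls were 2 of 79 in Z18truncZnFmut and 2 of 184 for Z18truncZnFmut against Z18trunc. Over all loci they were 319 of 6678 and 84 of 11002. L1MB5 in Z18truncZnFmut was at -0.022, L1MB4, L1MB7 and L1MB8 in Z18trunc against Z18fl at -0.0078, -0.038 and -0.017, and the SDCBP locus counted as intronic in Z18truncZnFmut at 0.030.

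Without a filter, which tests many more loci, the calls were 137 higher and 6 lower of 12043 in Z18fl and 145 and 1 of 14112 in Z18trunc. Over all loci they were 5138 and 1027 of 672394, and 4754 and 100 of 740717. In Z18truncZnFmut 0 of 25092 were lower, where 13 of 1150817 loci were. For Z18trunc against Z18fl the calls were 1 and 5 of 15685, where 123 and 228 of 825782 loci were called. The SDCBP intron locus was at 0.12 in Z18truncZnFmut. With all 12 libraries in a single fit 402 L1MB loci, and 23343 loci in all, were tested. The L1MB calls were 136 higher in Z18fl, 120 and 25 in Z18trunc, 61 and 11 in Z18truncZnFmut, and 2 and 4 for Z18trunc against Z18fl. Over all loci they were 5170, 4186 and 2635, 2723 and 1263, and 176 and 191. The subfamilies called higher were 4 in Z18fl and 2 in Z18truncZnFmut, where 123 and 68 of 966 were. The PCNX4 locus was then at -0.038 in Z18fl and the SDCBP intron locus at -0.17 in Z18trunc. With library sizes from aligned fragments the lower calls were 14, 5 and 1 for the 3 constructs against Clover, with 32 higher in Z18truncZnFmut. The calls over all loci in those comparisons are given above. In Z18trunc relative to Z18fl 7 of 340 were lower, where 393 of 18545 loci were. In Z18truncZnFmut relative to Z18trunc 2 of 305 were lower, where 135 of 18001 were. L1MB5 in Z18trunc against Z18fl was at 0.0030, L1MB1 to L1MB8 in Z18truncZnFmut against Z18trunc at 0.45, 0.16, 0.17, 0.20, 0.25, 0.28 and 0.28, and the SDCBP intron locus at 0.0051 in Z18fl and 0.075 in Z18truncZnFmut. DESeq2 called 15 lower in Z18fl, 8 lower in Z18trunc, 8 higher and 2 lower in Z18truncZnFmut, 2 and 6 for Z18trunc against Z18fl, 2 lower for Z18truncZnFmut against Z18trunc, and 1 subfamily higher in Z18truncZnFmut. Over all features, as many as in the main fits, it called 2070, 1011, 1067 and 320, 304 and 291, 81, and 42 subfamilies. At an unadjusted p the calls were 22 and 8 in Z18truncZnFmut, 19 and 44 between Z18trunc and Z18fl, and 11 and 32 between Z18truncZnFmut and Z18trunc, with 2 subfamilies higher in Z18truncZnFmut, 2 higher in Z18trunc than in Z18fl and 1 lower in Z18truncZnFmut than in Z18trunc.

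Groups share only a replicate number. Deviations of libraries with the same number correlated between -0.099 and 0.032, and in 4 of 15 cases a number matched itself best. With a replicate block the lower calls were 9 in Z18trunc, 7 for Z18trunc against Z18fl and 0 in Z18truncZnFmut relative to Z18trunc, and no other count moved by over 1.5 times. Over all loci those lower calls were 1365 of 13204, 449 of 19413 and 17 of 16833.

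Leaving out each library gave -189.9 to 354.5 CPM for Z18truncZnFmut minus Z18trunc, -0.0034 to 0.187 and -0.0557 to 0.378 for the share of LINE counts (Z18fl minus Clover and Z18truncZnFmut minus Z18trunc), -0.070 to 0.17 for the L1MA5-10 ratio (Z18truncZnFmut minus Z18trunc), -0.489 to 8.76 for the intron share (Z18truncZnFmut minus Clover) and -0.230 to 1.78 for the same-strand share (Z18trunc minus Z18fl). Higher and lower calls ran from 52 to 124 and 15 to 34 in Z18fl, 44 to 109 and 8 to 19 in Z18trunc, 5 to 19 and 1 to 3 in Z18truncZnFmut, 1 to 6 and 4 to 12 for Z18trunc against Z18fl, and 0 to 1 lower for Z18truncZnFmut against Z18trunc. Subfamilies higher ran from 0 to 4 in Z18truncZnFmut and 0 to 1 for Z18trunc against Z18fl. Single values that turned ran from -0.018 to 0.154 for L1MB5 in Z18truncZnFmut, -0.014 to 0.035 for L1MB7 and -0.039 to 0.024 for L1MB8 in Z18trunc against Z18fl, and -0.368 to 0.012 for L1MB1 in Z18truncZnFmut against Z18trunc. The PCNX4 locus ran from -0.14 to 0.24 in Z18fl, and the SDCBP intron locus in Z18trunc was at -0.15 without Clover replicate 2. Over single subfamilies and named loci, 862 values kept their direction and call, 76 lost the call, 20 gained it and 31 turned.

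Of 32054 elements, 31674 were too lowly read to be tested, and low depth and low abundance of the RNA cannot be told apart there. Clover had fewer aligned fragments than the other groups. Loci with 3 or fewer counts in Clover, 9 of the 73 higher in Z18fl, have wide intervals.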

Other observations

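The following loci were chosen after their values were seen. TNFRSF10B held 3 L1MB2 fragments on chromosome 8. The copy at chr8:23059812-23061009 had 4, 0 and 1 counts in the Clover libraries, 22, 7 and 18 with Z18fl, 25, 27 and 35 with Z18trunc and 23, 10 and 13 with Z18truncZnFmut, and rose by 3.24 ± 0.63 on the log2 scale in Z18trunc (edgeR adjusted p = 4.6e-04). The copy at chr8:23058879-23059509 rose by 2.19 ± 0.65 there (edgeR adjusted p = 0.013). Both lay above Clover in all 9 ZC3H18 libraries and did not pass the filter in Z18fl or Z18truncZnFmut.

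MAN2B2, an alpha-mannosidase, held the largest fall in Z18truncZnFmut, at an exonic L1MB7 (chr4:6621911-6622431). It had 82, 89 and 113 counts in the Clover libraries, 59, 62 and 57 with Z18fl, 81, 76 and 59 with Z18trunc and 67, 65 and 68 with Z18truncZnFmut, a log2 fold change of -1.13 ± 0.21 in Z18truncZnFmut (edgeR adjusted p = 3.0e-04). It was also among the loci called lower when Z18truncZnFmut replicate 3 was left out.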
